A study of Mus musculus with 12 samples.

Results

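The middle piece of the mouse cochlea was compared between postnatal day 0 (P0) and postnatal day 8 (P8), on 4 of the 12 microarrays of the study. The arrays were chosen by age and region alone, 2 for P0-middle and 2 for P8-middle, and the other 8 arrays hold the base and the apex of the same cochleae. All mice were untreated wild-type C57BL/6 pups. About 80 temporal bones per age were dissected, the otic capsule was removed, and the soft tissue, which held the sensory epithelium (organ of Corti), the limbus and the lateral wall, was cut into 3 equal pieces that went into separate pools. The dissection was done for both ages in a first set and again in a second set, so that each group holds 1 array of each set. Each array is therefore a pool of many animals and many cell types, no animal can be followed, and the 3 pieces of an age and set come from the same cochleae. P-values below come from the spread between arrays that is left after group and dissection set are fitted. That fit treats the 3 pieces of an age and set as separate, although they share cochleae. Where a fit allowed for the sharing, the correlation between such pieces was 0.279. The spread between repeated dissections of an age rests on 2 sets.

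The mouse is born deaf and begins to hear in the second postnatal week. Over this time outer hair cells gain their electromotile motor, the stria vascularis and spiral ligament build the potassium-rich endolymph and its positive potential, the tectorial membrane is completed, the bone around the duct mineralizes, and dividing cells leave the cycle. Thyroid hormone is required for much of this remodelling. The middle lies between the base, where maturation runs ahead, and the apex, where it follows later.

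The values are log2 signals made by the authors with robust multiarray averaging (RMA), and the test covered 16306 genes that had 1 symbol and whose mean exceeded a log2 signal of 6 in 1 or more of the 6 groups. A difference below is P8 minus P0 on this log2 scale, with the standard error (SE) of a limma fit over all 12 arrays that held the dissection set as a block. A gene is said to have risen or fallen where its Benjamini-Hochberg adjusted p over all tested genes was under 0.05, its fold was at least 2, and the higher of both middle means was above 6. Where the lower mean was under 6, the difference is a lower bound. Among the genes named below this holds for the risers Ibsp, Ocm, Clca2, Scin, Chrna3, Scn7a, Omd and Cd36 and for the fallers Bex1, Chodl, Bpifa1, Kcnh7, Ncapg, Scn3a, H2ac4, Mir19a and Mir20a. Over the tested genes the arrays had medians of 8.02 to 8.19, and the median SE of a difference was 0.139. Array values are given for the first and then the second set, with n = 2 arrays per age throughout. Signals of different genes depend on their probes and are not set against each other. Of the genes that check the sex of the pools, the Y-linked Eif2s3y read 8.49 and 9.16 at P0 and 9.27 and 8.70 at P8, so that Y-linked signal differed between pools, and its part in the results below was not tested.

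In the middle, 382 genes rose from P0 to P8, which is 2.34% of the tested genes, and 217 fell, which is 1.33%. Each count of a list or family below is to be read beside these shares. Each of these genes changed in the same direction in both dissection sets, while 66.7% of all tested genes did. The 2 ages did not overlap for 367 of the rising genes and 209 of the falling ones, against 41.1% of all tested genes. The call was made on these same arrays and favours both traits, so neither is further evidence for it. The rises were larger than the falls, with a median fold of 2.53 against 2.34, 58 genes past a fold of 4 among the rises and 15 among the falls, and 15 genes past a fold of 8 against 1. The difference was a lower bound for 33 of the rising and 32 of the falling genes. The set mattered to these counts, since 251 of the rising and 131 of the falling genes also passed without the block, and 271 and 125 passed in every fit when the 4 middle arrays were left out in turn. In RNA from whole tissue, fewer cells of a type and less RNA per cell cannot be told apart.

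**Figure D1:**
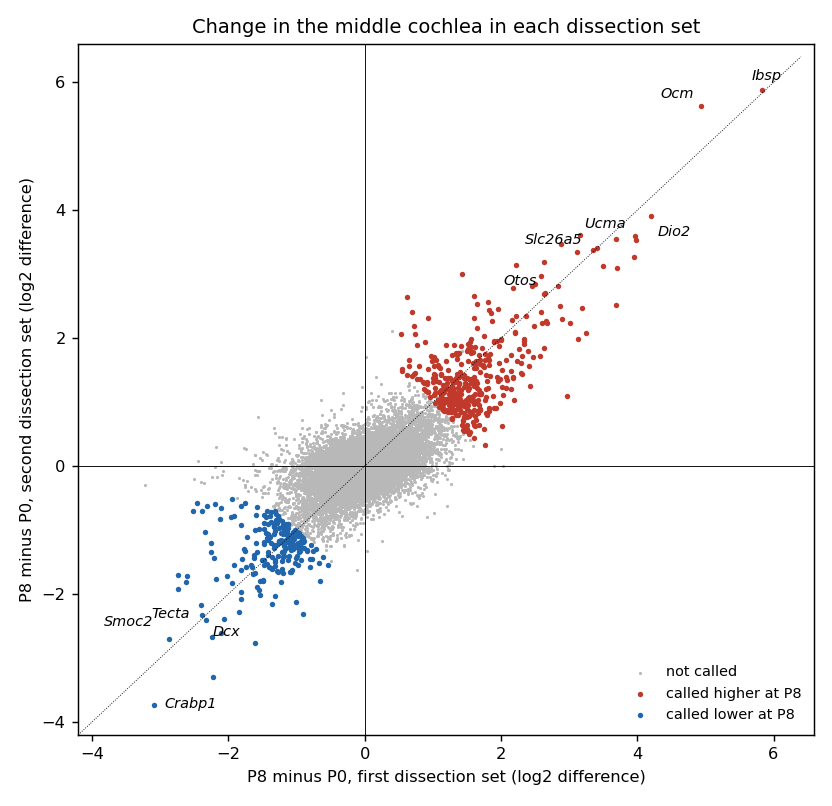
Difference P8 minus P0 in the middle cochlea in the first dissection set (x axis) and in the second (y axis), both on the log2 scale, for all 16306 tested genes, with the 382 genes that rose and the 217 that fell in colour. Every coloured gene lies on the same side of 0 in both sets, which the call itself favours. Ibsp and Ocm lie farthest out.

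The largest rise was that of Ibsp, which encodes bone sialoprotein, a matrix protein of mineralizing bone. Its log2 signal was 6.06 and 5.65 at P0 and 11.9 and 11.54 at P8, a difference of at least 5.86 ± 0.39 (SE, adjusted p = 7.6e-06 from limma). Next was Ocm, encoding oncomodulin, a calcium buffer of outer hair cells, with 5.68 and 5.71 at P0 and 10.62 and 11.34 at P8, a difference of at least 5.28 ± 0.30 (adjusted p = 2.59e-06 from limma). For both genes the P0 mean lay under the level of 6, and the P8 arrays stood far above them. Dio2, the deiodinase that makes active thyroid hormone, went from 6.96 and 6.99 to 11.16 and 10.89, a difference of 4.05 ± 0.19 (adjusted p = 8.18e-07 from limma). The other 9 of the 12 largest rises belonged to Ucma, Sfrp4, Clca2, Slco1c1, Emilin2, Phex, Tmprss9, Slc26a5 and Scin, with differences from 3.79 down to 3.32. Clca2, which encodes a calcium-activated chloride channel regulator, read 5.68 and 5.71 at P0 and 9.37 and 9.25 at P8, and Scin, which encodes the actin-severing protein scinderin, read 5.57 and 5.59 and then 9.07 and 8.72, both lower bounds. Tmprss9, a transmembrane serine protease gene, read 6.81 and 6.83 at P0 and 9.97 and 10.45 at P8.

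The largest fall was that of Crabp1, which encodes a cellular retinoic acid binding protein. It read 10.95 and 11.48 at P0 and 7.86 and 7.75 at P8, a difference of −3.41 ± 0.20 (adjusted p = 3.71e-06 from limma), and was the only falling gene past a fold of 8. It was followed by Smoc2, a matricellular calcium-binding protein gene, at −2.79 ± 0.15, Adgrg2, an adhesion G protein-coupled receptor gene, at −2.76 ± 0.24, and Chst15, a chondroitin sulfate sulfotransferase gene, at −2.45 ± 0.13. The other 8 were Dcx, Tecta, Cntn5, Chodl, P2rx3, Cdh4, Bex1 and Crym, from −2.37 to −2.22. Cntn5, an axonal contactin gene, and Cdh4, which encodes R-cadherin, fell by 2.36 and 2.22. Chodl, which encodes the lectin-like membrane protein chondrolectin, read 8.25 and 7.35 at P0 and 5.51 and 5.42 at P8, a lower bound. For these 12 genes every P8 array lay below every P0 array. Without the block the adjusted p of Bex1 was 0.0854, and the other 11 passed.

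**Figure D2:**
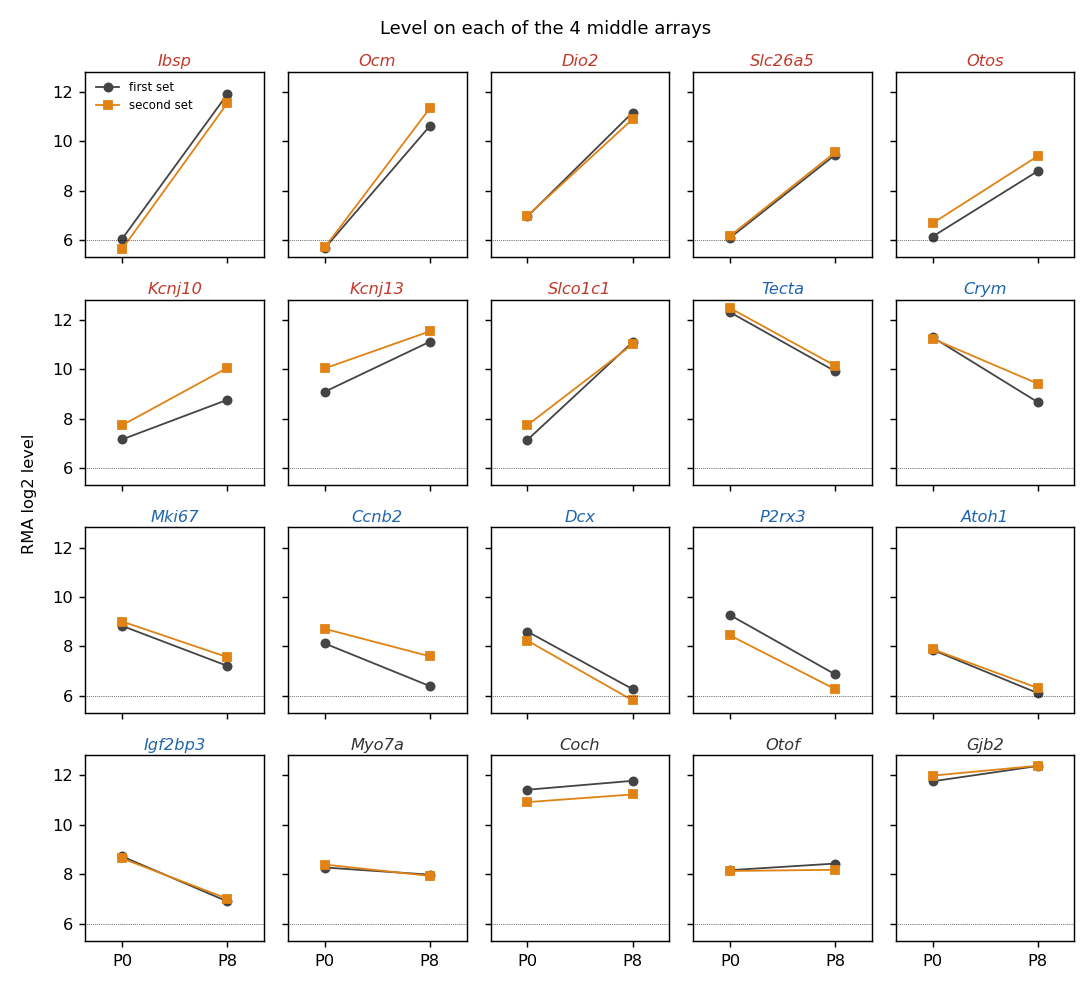
Log2 RMA signal (y axis) of 20 genes on the 4 middle arrays at P0 and P8 (x axis), with points of the same dissection set joined and a dotted line at the level of 6. Genes that rose have a red title, genes that fell a blue one and genes that did neither a grey one, as for Coch at 11.42 and 10.92 at P0 and 11.78 and 11.23 at P8.

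Among genes of the hair cells, several of outer hair cell function rose and the early factor Atoh1 fell. Of 15 tested genes of outer hair cell maturation 4 rose and none fell, with a median difference of 0.36 against −0.01 over all tested genes. The median was 0.56 and 0.58 without the P8 array of the first and of the second set. Besides Ocm they were Slc26a5, which encodes prestin, the motor protein of electromotility, Tmc1, a subunit of the transduction channel, and Lmod3, a leiomodin that nucleates actin. Slc26a5 read 6.10 and 6.17 at P0 and 9.45 and 9.55 at P8, a difference of 3.37 ± 0.18 (adjusted p = 1.93e-06 from limma). Tmc1 read 6.86 and 6.63 and then 8.40 and 8.00, a difference of 1.45 ± 0.15, and Lmod3 differed by 1.38 ± 0.17. All P8 arrays lay above all P0 arrays for these 4 genes. Tmc2, the transduction channel subunit of immature hair cells, did not pass the fold, with 6.37 and 6.99 at P0 and 5.89 and 5.91 at P8. The acetylcholine receptor subunits of the efferent synapse, Chrna9 and Chrna10, differed by −0.05 ± 0.20 and 0.06 ± 0.17.

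Of 18 hair cell transcription factors and early genes 2 fell and none rose, with a median of −0.43 that was −0.26 without the P8 array of the first set. Atoh1, the proneural factor that starts hair cell differentiation, read 7.86 and 7.89 at P0 and 6.12 and 6.32 at P8, a difference of −1.66 ± 0.14 (adjusted p = 2.8e-05 from limma). The calcium buffer gene Calb1 read 9.72 and 10.63 and then 8.13 and 9.86, a difference of −1.18 ± 0.22, and its arrays overlapped. Its call was lost without the block (adjusted p = 0.569) and without the P0 array of the first set (adjusted p = 0.0575), and its difference fell short of the fold without the P8 array of the first set. The factors Pou4f3 and Gfi1, which keep hair cells alive, differed by −0.36 ± 0.21 and −0.24 ± 0.12. The hair cell marker Myo7a, an unconventional myosin, read 8.28 and 8.39 at P0 and 7.99 and 7.94 at P8, and Myo6, another hair cell myosin, differed by 0.08 ± 0.11. In the list of the inner hair cell ribbon synapse 1 of 13 genes rose and 1 fell, with a median of −0.06. The riser was Kcnma1, the BK potassium channel gene, at 1.12 ± 0.15. It has 2 entries on the array, of which that of highest mean was used, and it did not pass on the mean of both. The faller was Rims2, an active zone scaffold gene, at −1.04 ± 0.16. Rims2 fell short of a fold of 2 without the P0 array of the first set or the P8 array of the second. Otof, the calcium sensor of hair cell exocytosis, and Slc17a8, the vesicular glutamate transporter of inner hair cells, differed by 0.16 ± 0.12 and 0.36 ± 0.12. Of 27 genes of the hair bundle and Usher proteins, Pls1, an actin bundler of stereocilia, fell by 1.02 on the log2 scale, and its fold was under 2 without either array of the first set. The other 26 did not pass, and the list's median was −0.16, and −0.27 without either array of the second set.

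Supporting cell and prosensory genes held 4 that fell and 1 that rose among 31 tested, with a median of −0.14. Prox1, a homeobox factor of developing supporting cells, read 8.65 and 8.53 at P0 and 7.29 and 6.92 at P8, a difference of −1.48 ± 0.16 (adjusted p = 0.000122 from limma). The LIM homeobox factor Isl1 fell by 1.09, the prosensory factor Sox2 by 1.08 and the Notch ligand Jag1 by 1.03 on the log2 scale. All 4 lay lower on each P8 array than on each P0 array. Sox2 was at −0.99 without the P8 array of the first set, and Jag1 was short of a fold of 2 without either array of the second set. Rorb, a nuclear receptor gene, was the one riser, from 6.26 and 6.69 to 8.60 and 8.65, a difference of 2.15 ± 0.13. The Notch effector Hes5 and the receptor Notch1 differed by −0.83 ± 0.16 and −0.62 ± 0.12, under the fold, and Fgfr3, a receptor of pillar and Deiters' cells, by 0.30 ± 0.12.

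The tectorial membrane is an acellular gel built of collagens and glycoproteins that the duct epithelium secretes. In a list of its genes and of those of other acellular gel glycoproteins, 2 of 14 tested genes fell and none rose, with a median of 0.12. Tecta, encoding alpha-tectorin, its main non-collagenous protein, read 12.3 and 12.47 at P0 and 9.92 and 10.14 at P8, a difference of −2.36 ± 0.11 (adjusted p = 9.65e-07 from limma). Oc90, which encodes an otoconial matrix protein, fell by 1.27 ± 0.17. Tectb, encoding beta-tectorin, went the other way without reaching the fold, with 11.84 and 12.36 at P0 and 12.83 and 12.95 at P8, a difference of 0.79 ± 0.14 (adjusted p = 0.0027 from limma). Otoa, encoding otoancorin, and Otog, encoding otogelin, differed by 0.09 ± 0.12 and −0.41 ± 0.11.

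**Figure D3:**
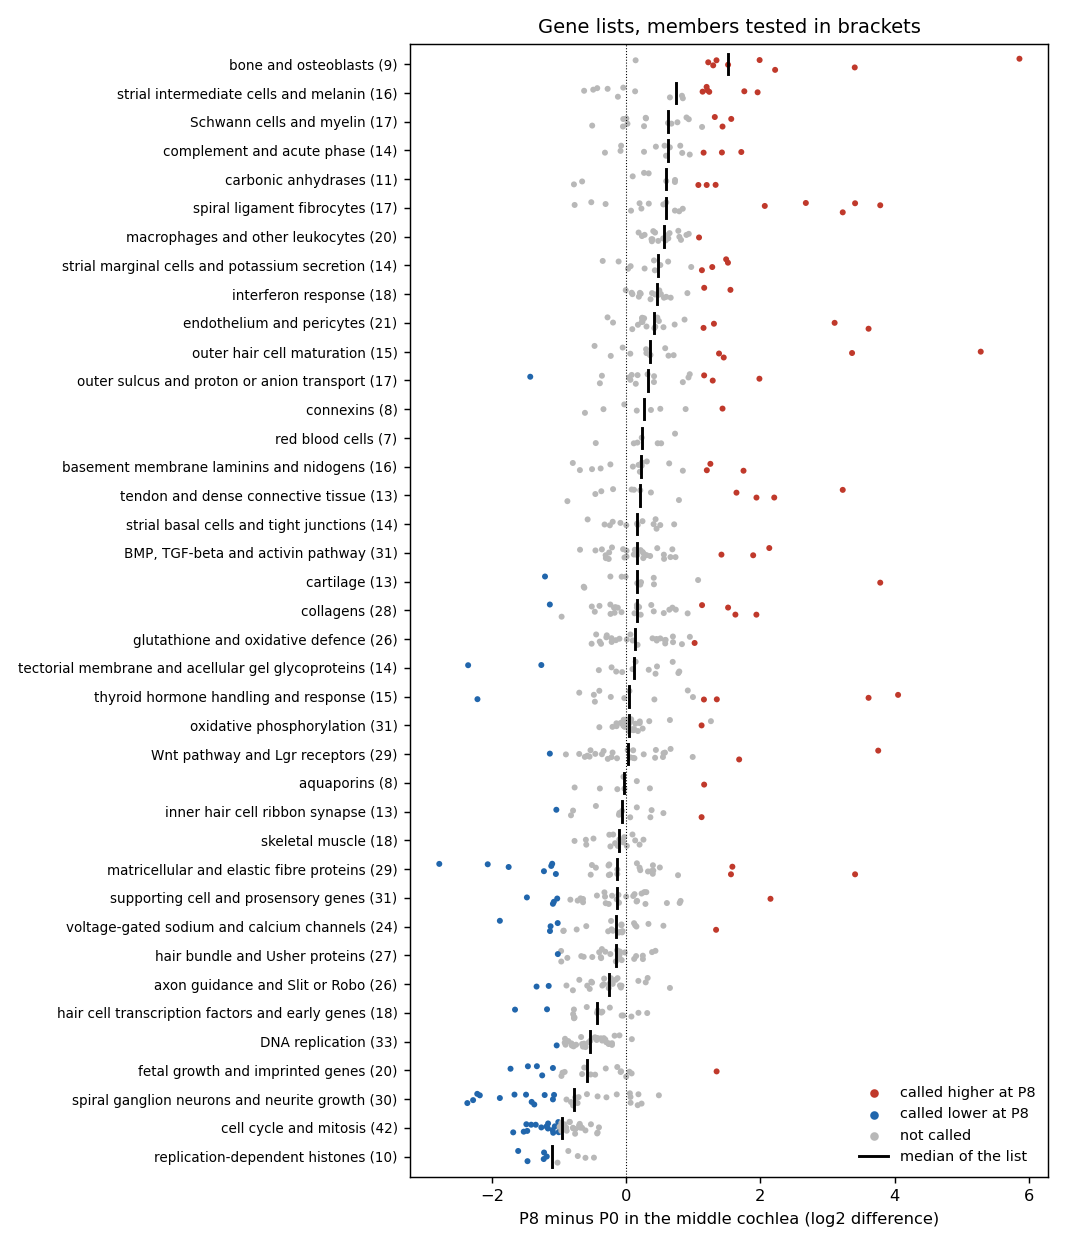
Difference P8 minus P0 in the middle on the log2 scale (x axis) for the tested members of 39 gene lists (y axis, number tested in brackets), with a dot per gene and a bar at each list's median. The dotted line is the median over all tested genes, −0.01, and the bone list reaches a median of 1.52 while the histone list lies at −1.105.

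The lateral wall genes rose more often than they fell. Of 16 tested genes of strial intermediate cells, the pigment cells that set the endocochlear potential, 6 rose and none fell, with a median of 0.74. Of the 16 differences 10 were positive and 6 negative, the lowest at −0.63. Kcnj10, whose potassium channel Kir4.1 generates that potential, read 7.16 and 7.74 at P0 and 8.76 and 10.05 at P8, a difference of 1.96 ± 0.22 (adjusted p = 0.000184 from limma). By in situ hybridization the paper saw Kcnj10 at P8 in the stria and also in the organ of Corti, so its signal need not come from these cells alone. Kcnj13, which encodes the channel Kir7.1, read 9.09 and 10.03 and then 11.11 and 11.53. Dct, a melanin enzyme gene, read 11.04 and 11.19 and then 12.36 and 12.34. All P8 arrays of these 3 genes lay above all P0 arrays. Mitf, the melanocyte master factor, Slc45a2, a melanosome transporter, and Met, the HGF receptor, rose by 1.14, 1.21 and 1.20. Without the block, 1 of the 6 passed, since the adjusted p was 0.14 for Kcnj10, 0.0989 for Kcnj13, 0.177 for Mitf, 0.266 for Slc45a2 and 0.237 for Met. The difference of Met was under a fold of 2 without either array of the first set.

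Of 14 tested genes of marginal cells, which secrete potassium into the endolymph, 4 rose and none fell, with a median of 0.47. They were Atp1b2 and Atp1b3, beta subunits of the sodium pump, Anxa1, an annexin, and Kcne1, the beta subunit of the secretory potassium channel. Atp1b2 read 10.49 and 10.99 at P0 and 12.27 and 12.19 at P8, a difference of 1.49 ± 0.18 (adjusted p = 0.000291 from limma). Kcne1 read 8.70 and 9.99 and then 9.95 and 11, so that its ages overlapped while the difference was alike within each set, 1.13 ± 0.12. Without the block the adjusted p was 0.532 for Kcne1, 0.264 for Anxa1 and 0.139 for Atp1b3, and 1 of the 4 genes passed. Kcnq1, the pore subunit of the same channel, lay just under the fold at 0.97 ± 0.19 (adjusted p = 0.00505 from limma), and the chloride channel subunit Bsnd was at 0.62 ± 0.15. None of the 14 tested genes of strial basal cells and tight junctions passed, with a median of 0.17, and Cldn11, the claudin of the basal cell barrier, differed by 0.44 ± 0.11.

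In the list of spiral ligament fibrocytes 5 of 17 tested genes rose and none fell, with a median of 0.60. Of the 17 differences 14 were positive and 3 negative. Ucma, a secreted protein of cartilage and ligament matrix, read 8.64 and 8.75 at P0 and 12.61 and 12.36 at P8, a difference of 3.79 ± 0.25 (adjusted p = 6.72e-06 from limma). Emilin2, an elastic fibre glycoprotein gene, rose by 3.41 ± 0.12, Chad, which encodes the matrix protein chondroadherin, by 3.23 ± 0.26, and S100b, a calcium-binding protein gene, by 2.06 ± 0.18. Otos, encoding otospiralin, a protein of ligament and limbus fibrocytes that is needed for hearing, read 6.15 and 6.69 and then 8.79 and 9.40, a difference of 2.68 ± 0.23. The ages were apart for all 5 genes. Ucma also stands in the cartilage list and Chad in the tendon list, and the paper cites earlier work that found Emilin2 in the basilar membrane. From which cells these rises came was not tested. Car3, another member, differed by 0.60 ± 0.13 and did not pass. Coch, encoding cochlin, and Otor, encoding otoraplin, were already high in P0 tissue and differed by 0.34 ± 0.12 and 0.20 ± 0.11, without passing.

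Transport genes gave a mixed picture. In the list of the outer sulcus and of proton or anion transport 3 of 17 genes rose and 1 fell, with a median of 0.32, and without the P0 array of the second set 5 rose and the median was 0.15. P2rx2, an ATP-gated channel gene, read 7.15 and 7.61 at P0 and 9.15 and 9.59 at P8, a difference of 1.99 ± 0.12 (adjusted p = 4.44e-06 from limma). Aqp4, the only 1 of 8 tested aquaporins to pass, rose by 1.16 ± 0.14. The proton pump subunits went opposite ways, with Atp6v0a4 higher by 1.29 ± 0.16 (adjusted p = 0.0967 without the block) and Atp6v1b1 at −1.43 ± 0.14. The anion exchanger gene Slc26a4, which encodes pendrin, was at 0.08 ± 0.12. Of 8 connexins, 1 rose, Gjb6, which encodes connexin 30, from 9.64 and 9.95 to 11.42 and 11.03, a difference of 1.44 ± 0.18, while Gjb2, encoding its partner connexin 26, was at 0.51 ± 0.11. Of 11 carbonic anhydrases, the enzymes that supply bicarbonate and protons, Car12, Car13 and Car14 rose by 1.08, 1.20 and 1.33 and none fell. Car12 lost its call without the block (adjusted p = 0.0592) and was under a fold of 2 without either array of the first set.

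Families of genes that share the stem of their symbol were also counted, and were chosen after their values were seen. Over all tested genes 2.34% rose and 1.33% fell. Of 86 potassium channel genes 9 rose and 1 fell. Besides those named above they included Kcnj16, which encodes Kir5.1, the partner of Kir4.1, from 6.53 and 6.65 to 8.98 and 9.46, a difference of 2.63 ± 0.14 (adjusted p = 1.79e-06 from limma), Kcnj2, an inward rectifier gene, at 1.41 ± 0.23, and Kcnb2, a delayed rectifier gene, at 1.19 ± 0.14, while Kcnh7 fell by 1.13 on the log2 scale. Of 326 solute carrier genes 20 rose and 3 fell, with a median of 0.11. Slc4a10, a sodium bicarbonate transporter gene, read 6.69 and 5.85 at P0 and 8.87 and 8.63 at P8, and Slc13a4, a sulfate transporter gene, 6.73 and 6.79 and then 9.40 and 9.04. The high-affinity choline transporter gene Slc5a7 fell by 1.61 on the log2 scale. None of 161 olfactory receptor genes and none of 28 Hox genes passed in either direction, with medians of 0.11 and −0.05. At the shares over all tested genes few calls would fall in 28 genes, so the Hox count is no result about that family. The 3 falls among the solute carriers are likewise no result about them.

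Thyroid hormone genes held 4 that rose and 1 that fell among 15 tested, with a median of 0.05, which ran up to 0.24 when 1 middle array was left out, highest without the P0 array of the first set. Besides Dio2, Slco1c1, a transporter of thyroxine in brain capillaries, read 7.14 and 7.74 at P0 and 11.09 and 11 at P8, a difference of 3.61 ± 0.20 (adjusted p = 2.47e-06 from limma). Crym, which encodes a cytosolic thyroid hormone binding protein, read 11.29 and 11.23 and then 8.67 and 9.41, a difference of −2.22 ± 0.18. The hormone's response genes Klf9, a zinc finger factor, and Hr, a histone demethylase corepressor, rose by 1.35 ± 0.24 and 1.16 ± 0.14. In all 5 genes the ages were apart. The receptors Thra and Thrb were at −0.47 ± 0.14 and −0.23 ± 0.16, and Dio3, the inactivating deiodinase, had both means under the level of 6.

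Of 21 genes of endothelium and pericytes 4 rose and none fell, with a median of 0.42, and without the P8 array of the first set 2 rose and the median was 0.27. They were Slco1c1 and the organic anion transporter Slco1a4, the efflux pump gene Abcb1a and the pericyte gene Rgs5. Slco1a4 read 7.79 and 8.04 at P0 and 11.47 and 10.57 at P8, a difference of 3.11 ± 0.26. Slco1c1 and Slco1a4 are transporters of blood-brain barrier endothelium. Of the list's other members, the glucose transporter gene Slc2a1 was at 0.24 ± 0.13 and the claudin gene Cldn5 at −0.28 ± 0.16. Pecam1, Cdh5 and Kdr were at 0.17 ± 0.16, 0.42 ± 0.18 and 0.49 ± 0.22. None of these passed, and 19 of the 21 differences were positive. Abcb1a rose by 1.15 and Rgs5 by 1.31, but without the block their adjusted p was 0.494 and 0.0725 (limma). Rgs5 also lost its call without the P0 array of the first set (adjusted p = 0.0822) and without the P8 array of that set (adjusted p = 0.0692), and the difference of Abcb1a was under a fold of 2 without the latter. Of the 8 tested organic anion transporters of the Slco family 3 rose, the other being Slco2a1, and 1, Slco5a1, fell by 1.16 on the log2 scale but was short of a fold of 2 without the P0 array of the second set.

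Most tested bone genes rose. Of 14 listed genes of osteoblasts 9 were tested. Of these 8 rose and none fell, with a median of 1.52, and the remaining gene was at 0.14. The median signal of the list was 6.39 and 6.51 on the P0 arrays and 8.80 and 8.34 on the P8 arrays. Sp7, the osteoblast transcription factor osterix, read 6.39 and 6.51 at P0 and 8.80 and 8.08 at P8, a difference of 1.99 ± 0.25 (adjusted p = 0.000329 from limma). Alpl, the phosphatase needed for mineral, rose by 2.22 ± 0.13, and Phex, an endopeptidase of phosphate control, from 6.23 and 6.25 to 9.94 and 9.36. All P8 arrays of these 3 genes lay above all P0 arrays. Further risers were Col24a1, a fibrillar collagen, at 1.52 ± 0.19, and Dmp1, Omd and Ifitm5 at 1.35, 1.30 and 1.22. Dmp1 and Omd lost their calls without the block (adjusted p of 0.17 and 0.361 from limma). Dmp1 also did without either array of the first set (0.113 and 0.0688) and Omd without either of the second (0.294 and 0.244). Ifitm5 was short of a fold of 2 without the P8 array of the second set. Outside the list, and chosen after their values were seen, the matrix mineralization genes Phospho1 and Smpd3, the osteoblast channel gene Panx3 and the homeobox gene Dlx5 rose by 2.68, 2.46, 2.35 and 2.50. The bony capsule was removed before RNA was taken, and how much capsule stayed on the pieces was not tested.

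Other connective tissue genes moved in both directions. Among tendon and dense connective tissue 4 of 13 genes rose and none fell, with a median of 0.21: Chad, Tnmd, which encodes tenomodulin, at 2.21 ± 0.29, Kera, which encodes keratocan, at 1.94 ± 0.15, and Igfbp6, a growth factor binding protein gene, at 1.64 ± 0.22. Among 28 collagens 4 rose and 1 fell, with a median of 0.16. Col8a1, a short-chain network collagen, read 8.54 and 9.04 at P0 and 10.78 and 10.68 at P8. Col4a3 and Col4a4, the basement membrane chains that are mutated in Alport syndrome, rose by 1.63 and 1.13, the latter with adjusted p = 0.154 without the block, 0.0678 without the P0 array of the first set and 0.0749 without the P8 array of that set (limma). Col18a1 fell by 1.14 on the log2 scale, short of a fold of 2 without the P8 array of the first set. Among 16 laminins and other basement membrane genes Ntn4, encoding netrin 4, Lama2 and Npnt rose by 1.75, 1.25 and 1.20 and none fell (Npnt at adjusted p = 0.224 without the block).

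Matricellular and elastic fibre genes were the group of matrix genes with the most falls, 7 of 29, beside 3 rises, and a median of −0.13 that turned to 0.03 without the P8 array of the first set. Tnc, encoding tenascin C, read 10.31 and 11.17 at P0 and 8.46 and 8.89 at P8, a difference of −2.06 ± 0.23 (adjusted p = 0.000184 from limma). Spock3, a testican gene, and Fbn2, the developmental fibrillin, fell by 1.75 and 1.104 on the log2 scale, and the other 3 beside Smoc2 were Tgfbi at −1.23, Postn at −1.12 and Fbln2 at −1.05. Tgfbi was at adjusted p = 0.0609 without the block, Postn was short of a fold of 2 without the P8 array of the second set, and Fbln2 without either array of the first. Emilin2, Spon1 and Ccn4 rose by 3.41, 1.58 and 1.56. Outside the list Vcan, the proteoglycan versican, fell from 9.27 and 9.55 to 7.45 and 7.47. Of 13 cartilage genes Ucma rose and Matn1, encoding matrilin 1, fell by 1.21 on the log2 scale (adjusted p = 0.0937 without the block, 0.108 without the P0 array of the second set and 0.137 without the P8 array of the first), while Col2a1 was at 0.41 ± 0.11.

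Of 30 tested genes of spiral ganglion neurons and neurite growth 12 fell and none rose, with a median of −0.78. Dcx, encoding doublecortin, a microtubule protein of immature neurons, read 8.61 and 8.24 at P0 and 6.28 and 5.83 at P8, a difference of −2.37 ± 0.20 (adjusted p = 2.91e-05 from limma). P2rx3, an ATP-gated channel of sensory neurons, read 9.27 and 8.45 and then 6.88 and 6.28, and Stmn2, encoding the growth cone protein stathmin 2, 9.97 and 9.93 and then 8.37 and 7.16. For these 3 genes all P8 arrays were lower than all P0 arrays. Scn9a, a sodium channel gene of sensory neurons, fell by 1.88 and Bex1 by 2.22 on the log2 scale. The neurofilament genes Nefm and Nefl were at −1.67 and −1.49, the growth cone gene Gap43 at −1.37, the RNA-binding genes Elavl4 and Elavl3 at −1.41 and −1.08, and the synuclein gene Sncg at −1.22. Without the block 6 of the 12 passed, with an adjusted p of 0.174 for Nefm, 0.217 for Nefl, 0.354 for Gap43, 0.157 for Elavl4, 0.403 for Sncg and 0.0854 for Bex1. Nefl passed in no fit that left out a middle array (adjusted p from 0.13 to 0.199), Gap43 and Elavl4 not without the P0 array of the first set (0.0694 and 0.0897), Elavl4 not without the P8 array of the second (0.0738), and Elavl3 was short of the fold without the P0 array of the first. The glutamate transporter gene Slc17a7, a marker of these neurons, was at 0.15 ± 0.25. The ganglion lies in the modiolus, and how much of it each piece held was not tested.

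Of 24 sodium and calcium channel genes 4 fell and 1 rose, with a median of −0.15 that was −0.26 without the P8 array of the first set and −0.07 without that of the second. Besides Scn9a these were Cacna1h, a low-voltage-activated calcium channel gene, at −1.14 ± 0.11, Scn3b at −1.13 ± 0.16 and Scn3a at −1.02 ± 0.13, and the riser was Scn7a, a sodium-sensing channel gene of glia, from 5.49 and 5.20 to 6.87 and 6.49. Scn3a lost its call without the block (adjusted p = 0.205) and was short of the fold without either array of the first set, and Scn3b without the P8 array of the second. Among 26 axon guidance genes Sema3e and Epha4 fell by 1.34 and 1.16 on the log2 scale and none rose. Schwann cell and myelin genes moved the other way, with 3 of 17 risen, none fallen and a median of 0.62, which was 0.83 in the first set and 0.26 in the second, and 5 rose without the P8 array of the second. Mal, a myelin proteolipid gene, read 8.81 and 8.92 at P0 and 10.6 and 10.26 at P8, and Gldn, the node-forming gliomedin gene, 6.38 and 6.50 and then 7.98 and 7.75. Pmp22, a peripheral myelin protein gene, rose by 1.32, with adjusted p = 0.113 without the block, 0.195 without the P0 array of the first set and 0.164 without the P8 array of that set (limma). Mbp, the myelin basic protein gene, was at 0.93 ± 0.19, short of the fold.

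Of 42 tested genes of the cell cycle and mitosis 15 fell and none rose, all 42 differences were negative, and the median was −0.96, −1.07 in the first set and −0.78 in the second. Mki67, the proliferation marker Ki-67, read 8.83 and 9.01 at P0 and 7.21 and 7.57 at P8, a difference of −1.53 ± 0.14 (adjusted p = 5.87e-05 from limma). Top2a, the mitotic topoisomerase gene, read 8.83 and 8.44 and then 7.36 and 6.96, and Bub1, a spindle checkpoint kinase gene, 7.31 and 7.75 and then 5.93 and 6.15. The P8 arrays of these 3 genes were all below the P0 arrays. Cks2, encoding a cyclin-dependent kinase subunit, had the largest difference, −1.69 ± 0.27, but the sets lay far apart, with 7.22 and 8.89 at P0 and 4.88 and 7.86 at P8. Ccnb2, a mitotic cyclin gene, read 8.12 and 8.71 and then 6.40 and 7.60. Kif11, a spindle kinesin gene, Ncaph and Ncapg, condensin genes, and Plk1, a mitotic kinase gene, fell by 1.35, 1.09, 1.06 and 1.17 on the log2 scale. The count was 9 without the block, where the adjusted p was 0.63 for Cks2, 0.216 for Ccnb2, 0.0502 for Ccna2, 0.349 for Cdk1, 0.211 for Racgap1 and 0.0755 for Cdca3. It ran from 12 to 23 when 1 middle array was left out, where Cdk1 had an adjusted p of 0.0543 without the P8 array of the first set, Cdca3 had 0.125 without that array and 0.179 without the P0 array of the same set, and Plk1 was at −0.98 without the P0 array of the first set.

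Many genes of this list share letters near their start sites, and the promoters of 5 members that fell are shown for that reason. Each of the 5 holds both motifs described below, which not every member that fell does. Each is 300 bases of RefSeq for GRCm38.p6, from 250 before to 50 after the start, 5′ to 3′ on the gene's strand: Mki67 on the minus strand of chr7:135716330-135716629, Top2a on the minus strand of chr11:99024140-99024439, Ccnb2 on the minus strand of chr9:70421505-70421804, Cdk1 on the minus strand of chr10:69352863-69353162 and Plk1 on the plus strand of chr7:122159185-122159484. Capitals mark TTTGAA or TTTAAA, the cell cycle homology region (CHR) that late cell cycle promoters are known to carry, and CCAAT, the box bound by the factor NF-Y, on either strand (TTCAAA and ATTGG on the other strand).
Mki67: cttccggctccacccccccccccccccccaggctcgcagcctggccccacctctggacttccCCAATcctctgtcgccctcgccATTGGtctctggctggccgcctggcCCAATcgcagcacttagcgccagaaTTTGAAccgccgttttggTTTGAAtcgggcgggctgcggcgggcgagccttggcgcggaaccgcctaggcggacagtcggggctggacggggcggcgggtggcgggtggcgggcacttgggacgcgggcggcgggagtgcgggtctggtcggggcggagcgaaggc
Top2a: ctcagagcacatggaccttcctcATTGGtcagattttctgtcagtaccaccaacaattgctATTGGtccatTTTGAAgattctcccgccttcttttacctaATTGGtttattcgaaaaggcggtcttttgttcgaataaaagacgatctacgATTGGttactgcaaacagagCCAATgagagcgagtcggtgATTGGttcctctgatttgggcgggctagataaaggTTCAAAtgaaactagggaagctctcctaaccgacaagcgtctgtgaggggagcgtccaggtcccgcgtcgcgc
Ccnb2: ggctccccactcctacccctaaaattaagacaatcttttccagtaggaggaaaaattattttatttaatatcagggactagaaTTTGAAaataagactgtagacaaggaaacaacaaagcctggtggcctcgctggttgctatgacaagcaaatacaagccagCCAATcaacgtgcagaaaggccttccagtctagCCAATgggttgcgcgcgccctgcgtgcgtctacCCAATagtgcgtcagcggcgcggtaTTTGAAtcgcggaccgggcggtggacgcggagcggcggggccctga
Cdk1: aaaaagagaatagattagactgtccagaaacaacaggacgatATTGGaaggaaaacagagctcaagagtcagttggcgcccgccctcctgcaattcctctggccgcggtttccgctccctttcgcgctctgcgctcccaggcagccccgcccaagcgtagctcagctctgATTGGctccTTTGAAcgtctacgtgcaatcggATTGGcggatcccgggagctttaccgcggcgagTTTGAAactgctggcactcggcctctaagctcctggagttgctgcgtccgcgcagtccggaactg
Plk1: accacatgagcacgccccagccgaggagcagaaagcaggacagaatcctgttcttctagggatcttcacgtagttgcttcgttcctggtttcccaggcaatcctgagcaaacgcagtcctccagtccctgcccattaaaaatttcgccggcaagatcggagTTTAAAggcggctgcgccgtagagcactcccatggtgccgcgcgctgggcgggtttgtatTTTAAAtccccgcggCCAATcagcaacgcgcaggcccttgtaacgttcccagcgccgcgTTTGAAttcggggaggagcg

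In Mki67 the 2 CHR matches lie at −116 and −98 from the start, in Ccnb2 at −167 and 4, and in Cdk1 at −71 and −15. Of the 15 cell cycle genes that fell, 14 had a promoter entry, 11 of them held a CHR match, 12 a CCAAT match and 10 held both. The promoters shown are all among those 10. Cks2 and Bub1 held no CHR match, Kif15 no CCAAT match and Ncaph neither. Over the whole list, 71.4% of 42 promoters of 38 genes held a CHR match, 76.2% a CCAAT match and 61.9% both. Among the 16121 promoters of tested genes these shares were 20.1%, 36.8% and 7.81%, and among all 32851 RefSeq promoters given they were 27.6%, 37.4% and 10.7%. The promoters of all 217 falling genes, 197 in number, include those of these 14 genes. Of the 197, 28.4% held a CHR match, 46.7% a CCAAT match and 18.3% both. Among the 371 of the rising genes the shares were 21.3%, 33.2% and 7.55%. The E2F motif, searched as TTTCCCGC, TTTGGCGC or TTTCGCGC, stood in 9.52% of the list's promoters and in 2.93% of those of tested genes. TATAAA stood in 4.76% against 8.34%, and TCAAGGTCA, a motif of the estrogen-related receptors, in none against 0.279%. A match describes letters and is not a bound site. TTTAAA reads the same on both strands and was counted once.

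Of 33 DNA replication genes Uhrf1, a maintenance methylation factor, fell by 1.04 on the log2 scale and none rose. This 1 gene is 3.03% of the list, beside 1.33% over all tested genes, although 32 differences were negative and the median was −0.53. Uhrf1 was short of the fold without either array of the first set. Mcm2, a subunit of the replicative helicase, was at −0.67 ± 0.14 and Pcna, the sliding clamp, at −0.21 ± 0.13. Of 10 tested replication-dependent histone genes 5 fell, with a median of −1.105 that was −1.61 in the first set and −0.57 in the second, and 1 passed without the block. That gene was H1f1, a linker histone, from 9.44 and 9.13 to 7.96 and 8.24. Histone genes are near copies of one another, and probes may not tell them apart. Without either array of the first set H1f5 was at adjusted p = 0.301 and 0.242, H2bc3 at 0.322 and 0.279 and H2bc14 at 0.174 and 0.154 (limma), and H2ac4 had 0.104 and 0.13 there and 0.0682 without the P0 array of the second set.

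Of 20 genes of fetal growth and imprinting 5 fell and 1 rose, with a median of −0.58. Igf2bp3, a fetal RNA-binding protein gene, read 8.72 and 8.64 at P0 and 6.91 and 7.01 at P8, a difference of −1.73 ± 0.13 (adjusted p = 1.62e-05 from limma), and its relative Igf2bp1 was at −1.25 ± 0.12. The imprinted gene Mest read 10.85 and 10.98 and then 9.57 and 9.34, a difference of −1.47 ± 0.12, and the imprinted long RNA Meg3 fell by 1.33 on the log2 scale. The P8 arrays were below the P0 arrays in all 4. The imprinted growth factor Igf2 was at −0.13 ± 0.14 and Dlk1, an imprinted Notch ligand relative, at −0.66 ± 0.14. Gatm, the creatine synthesis enzyme, was the riser at 1.35 ± 0.18. Without the block the adjusted p was 0.143 for Meg3 and 0.367 for Gatm, and Zim1, at −1.09, passed neither without the block (0.187) nor without any 1 of the middle arrays (0.072 to 0.17).

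The array also carries entries for microRNA genes. Where their probes lie was not given, so their signals are not taken as levels of the mature forms. Of 173 tested, 3 rose and 4 fell, with a median of −0.03, and those described below were chosen after their values were seen. These shares, 1.73% and 2.31%, are near the 2.34% and 1.33% over all tested genes, so the counts are no result about microRNA genes as such, and the calls below are given as single genes. Of the 11 genes described, 9 lie in 3 genomic groups (RefSeq, GRCm38.p6, plus strand). The first is 5 genes, on chr14:115043671-115044391, of a cluster known for driving proliferation, whose other members are not described here. The others are a pair of the miR-181 family on chr1:137966455-137966718 and a second pair of that family on chr2:38852735-38853918. Mir218-1 and Mir568 lie elsewhere. Their mature forms are shown 5′ to 3′ with the seed, bases 2 to 8, in capitals, since 5 genes of the first group fall into 3 seeds and the 2 miR-181 pairs encode the same 2 leading forms.
miR-17-5p: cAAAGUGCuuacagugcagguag
miR-20a-5p: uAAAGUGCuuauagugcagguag
miR-18a-5p: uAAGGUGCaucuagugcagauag
miR-19a-3p: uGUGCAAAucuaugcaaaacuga
miR-19b-3p: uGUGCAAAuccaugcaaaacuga
miR-181a-5p: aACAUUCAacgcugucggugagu
miR-181b-5p: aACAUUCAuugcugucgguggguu
miR-218-5p: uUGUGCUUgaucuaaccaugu
miR-568: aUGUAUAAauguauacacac

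In the chromosome 14 cluster Mir19a and Mir20a fell. Mir19a read 6.71 and 5.50 at P0 and 5.23 and 4.28 at P8, a difference of −1.35 ± 0.18 (adjusted p = 0.000572 from limma), and Mir20a 7.81 and 5.75 and then 6.20 and 4.75, a difference of −1.30 ± 0.25 (adjusted p = 0.00518 from limma). The ages overlapped in both because the sets lay apart. Mir19b-1, whose mature form has the seed GUGCAAA of miR-19a-3p, was at −0.93 ± 0.15, Mir18 at −0.88 ± 0.17 and Mir17, with the seed AAAGUGC of miR-20a-5p, at −0.34 ± 0.18, none past the fold. In the miR-181 pair on chromosome 1, Mir181a-1 read 5.62 and 6.82 and then 7.17 and 7.36, a difference of 1.04 ± 0.20, and Mir181b-1 8.03 and 9.34 and then 9.48 and 9.90, a difference of 1.003 ± 0.31 (adjusted p = 0.0455 from limma). In the pair on chromosome 2, Mir181b-2 fell from 8.16 and 9.54 to 7.11 and 8.33, a difference of −1.14 ± 0.13 (adjusted p = 0.00022 from limma), and Mir181a-2 was at −0.51 ± 0.18. Mir181b-1 and Mir181b-2 encode the same miR-181b-5p, and the mature forms were not measured on their own. Mir218-1, which lies in the gene Slit2, fell by 1.15 from 8.86 and 9.80 to 7.71 and 8.65, and Mir568 rose by 1.21. None of these 7 calls held without the block, with adjusted p from 0.283 to 0.658. Mir20a had 0.0707 without the P0 array of the first set, Mir181a-1 had 0.0722 without that array and 0.0596 without the P8 array of the first set, and Mir181b-1 had 0.309 and 0.338 there and 0.0768 without the P0 array of the second set. Without the P0 array of the first set Mir568 was at 0.93, short of the fold, and Mir19a had both means under the level of 6.

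**Figure D4:**
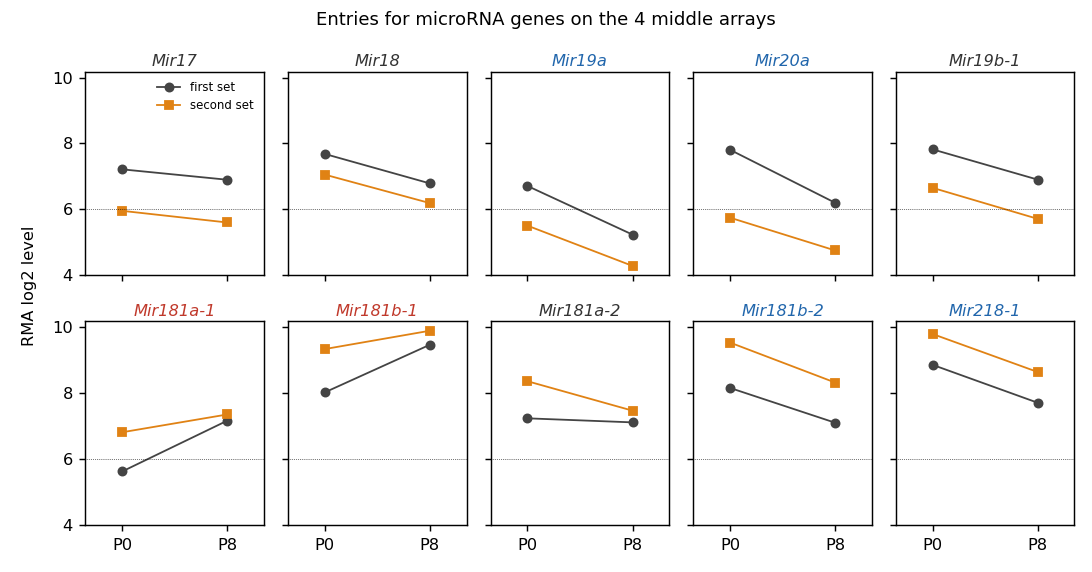
Log2 RMA signal (y axis) of microRNA gene entries on the 4 middle arrays at P0 and P8 (x axis), with points of the same dissection set joined. The entries of Mir181a-1 and Mir181b-1 lie higher at P8 in both sets, at differences of 1.04 and 1.003, while that of Mir181b-2 lies lower, at −1.14.

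Immune genes lay higher at P8, though few passed. All 20 tested genes of macrophages and other leukocytes had a positive difference, with a median of 0.57, of which 1 passed, the lipid receptor gene Cd36 at 1.08, and it did not without the block (adjusted p = 0.0831), nor without the P0 array (0.177) or the P8 array (0.0974) of the first set. Csf1r, the macrophage growth factor receptor, read 8.76 and 8.51 at P0 and 9.78 and 9.29 at P8, a difference of 0.90 ± 0.13 (adjusted p = 0.00086 from limma), short of a fold of 2. Of 14 complement and acute phase genes 3 rose and none fell (5 rose without the P0 array of the second set), with a median of 0.62: the protease inhibitor A2m at 1.72 ± 0.20, C2 at 1.43 ± 0.16 and C4b at 1.15 ± 0.15. Of 18 interferon genes 2 rose, the RNA sensor Ifih1 at 1.16 ± 0.12 and Ifit3 at 1.55 ± 0.36, the latter from 6.03 and 6.08 to 6.73 and 8.48, lost without the block (0.367) and without the P0 (0.119) or the P8 array (0.0906) of the second set. The median signal of the macrophage list was 7.70 and 7.68 on the P0 arrays and 8.21 and 8.31 on the P8 arrays, and its part in these results was not tested.

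None of 18 skeletal muscle genes and none of 7 red blood cell genes passed. Of the latter 6 differences were positive, and Car1, Alas2 and Slc4a1 were at 0.73 ± 0.13, 0.52 ± 0.14 and 0.47 ± 0.12 with adjusted p of 0.00303, 0.0304 and 0.0186 from limma, under a fold of 2. The median signal of the muscle list was between 6.57 and 6.80 on all 4 arrays and that of the red blood cell list between 6.43 and 6.79. Metabolic genes had medians of 0.04 over 31 genes of oxidative phosphorylation and 0.13 over 26 of oxidative defence. These medians were negative without the P0 or the P8 array of the second set. Each list had 1 riser, Ndufa1 at 1.12 and Gstt1 at 1.02. That is 3.23% and 3.85% of the lists, near the 2.34% over all tested genes, so the counts are no result about the lists. Neither passed without the block (adjusted p of 0.543 and 0.494 from limma), Ndufa1 was short of the fold without the P8 array of the first set, and Gstt1 had 0.0941 and 0.0868 without the P0 and the P8 array of the second set.

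In the secreted signalling pathways a few ligands and antagonists changed and most members did not pass. Of 29 Wnt pathway genes 2 rose and 1 fell, with a median of 0.02 that was negative, at −0.07 at the lowest, without the P8 array of the first set or either array of the second. Sfrp4, a secreted Wnt antagonist, read 6.24 and 5.82 at P0 and 10.22 and 9.36 at P8, a difference of 3.76 ± 0.13 (adjusted p = 1.74e-07 from limma), while its relative Sfrp2 fell by 1.14 on the log2 scale and the ligand Wnt2b rose by 1.68 ± 0.18. Of 31 BMP, TGF-beta and activin genes 3 rose and none fell, with a median of 0.16. All 3 were ligands, Gdf6 from 6.60 and 6.51 to 8.42 and 8.96, a difference of 2.13 ± 0.18, Bmp6 at 1.89 ± 0.14 (adjusted p = 0.0524 without the block) and Gdf10 at 1.42 ± 0.17. Bmp4 and the activin antagonist Fst were at −0.26 ± 0.11 and −0.36 ± 0.14.

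Of the changing genes 310 of the 382 that rose and 153 of the 217 that fell belonged to none of these lists. Among the risers chosen after their values were seen, Bhmt, Dmgdh and Etnppl encode enzymes of betaine, glycine and phosphoethanolamine metabolism and rose by 2.67, 2.83 and 2.63. Aldh1a1, a retinaldehyde dehydrogenase gene, read 9.30 and 9.16 at P0 and 12.19 and 11.46 at P8, Trf, encoding transferrin, rose by 2.15 ± 0.16, Nr3c2, the mineralocorticoid receptor, by 1.79 ± 0.23, and Ptgds, prostaglandin D synthase, by 1.74 ± 0.13. All of these were apart between the ages. Chrna3, a nicotinic receptor subunit gene, read 5.70 and 5.71 and then 8.20 and 8.56, a difference of at least 2.67 ± 0.17, and Chrnb4, which encodes the subunit it pairs with and lies beside it in the genome, rose by 1.32 ± 0.15.

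The change in the middle was then set against those of the base and the apex, whose pieces were cut from the same cochleae. Of the 382 genes that rose in the middle, all 382 also had a positive difference in both other regions, and of the 217 that fell, 217 and 216 were negative there. The median difference of the rising genes was 1.34 in the middle against 1.26 (base) and 1.30 (apex), and that of the falling genes was −1.23, −1.11 and −1.27. The genes were chosen by their change in the middle, which by itself favours the middle. The middle lay between base and apex for 196 of the risers and 126 of the fallers, and for 50.2% of all tested genes. When the difference itself was tested, with an adjusted p under 0.05 and no fold threshold, 1 gene changed otherwise in the middle than in the mean of base and apex, which is 0.00613% of the tested genes, 2 changed otherwise than in the apex, which is 0.0123%, and none otherwise than in the base (limma). At an unadjusted p under 0.05 these counts were 143, 360 and 283. With the shared cochleae of each age and set as a fixed block the adjusted counts were 1, 4 and 4.

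The 1 gene apart from the mean of base and apex was Bpifa1, a secreted protein of airway and other epithelia. In the middle it read 7.41 and 7.84 at P0 and 5.59 and 5.88 at P8, a fall of at least 1.89, while the base was at 5.77 and 5.66 and the apex at 5.81 and 6.04 as means of P0 and P8. The fitted contrast of its change in the middle with the mean of the other regions was −1.96 ± 0.18 (adjusted p = 0.00651 from limma), and with the apex −2.13 ± 0.21 (adjusted p = 0.0118 from limma). Since the base, the apex at P0 and the middle at P8 were under the level of 6, no change is read in the base, these contrasts are not measured sizes, and they rest on the 2 P0-middle arrays. Bpifb3, a gene of the same family, fell in the middle from 9.45 and 9.60 to 7.66 and 8.16 and was at −1.25 in the base and −0.23 in the apex, differences that did not pass. Tecta, the other gene, fell by 2.36 in the middle and was at −3.19 in the base and −1.02 in the apex, so that its change in the middle minus that in the apex was −1.34 ± 0.16 (adjusted p = 0.0343 from limma). Its mean signal at P0 was 12.02 in the base, 12.39 here and 12.42 in the apex, and at P8 it was 8.83, 10.03 and 11.4 in that order. Other large changes of the middle were not shown to differ between regions: Ibsp was at 6.02 in the base and 3.78 in the apex, Ocm at 3.84 and 4.92, and Chrna3 at 0.72 and 2.61 (adjusted p = 0.0686 against the base from limma). Without the P0 array of the second set or the P8 array of the first, no gene passed against both or against the apex.

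**Figure D5:**
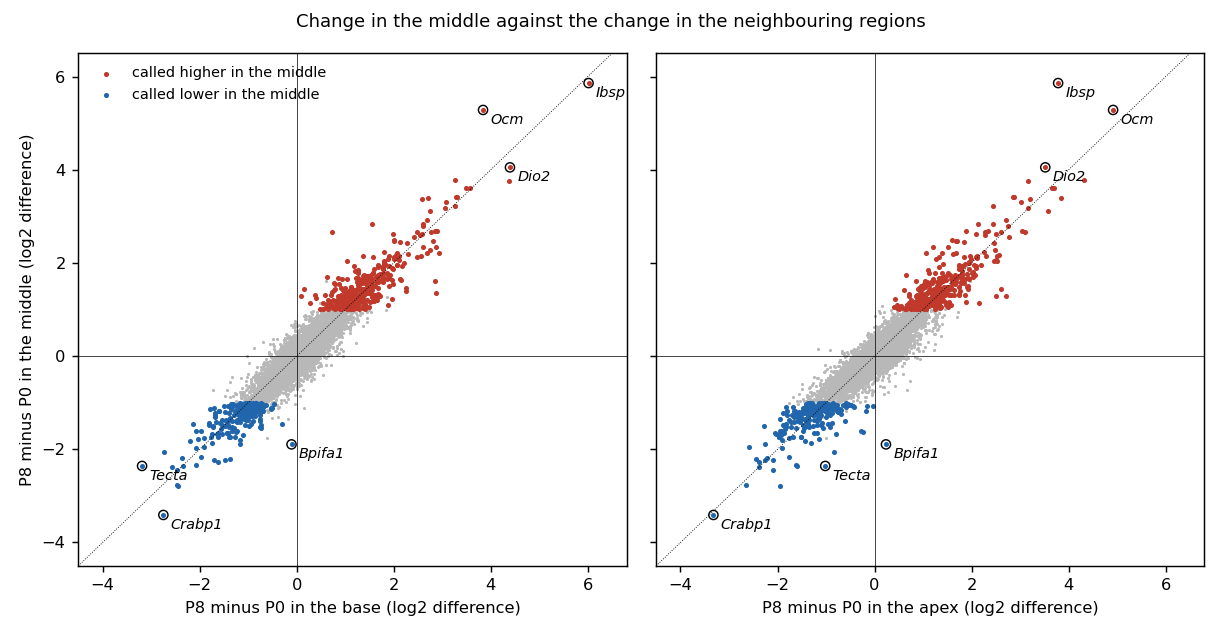
Difference P8 minus P0 on the log2 scale in the middle (y axis) against that in the base (left, x axis) and in the apex (right, x axis) for all tested genes, with 6 genes circled and the line of equal change drawn. Most genes lie near the line, and Bpifa1 stands off it in both panels, with a fall of at least 1.89 in the middle and a base under the level of 6 at both ages, where no change is read.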

How the data were processed

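The authors hybridized RNA of each pool to an Affymetrix Mouse Gene 1.0 ST array and deposited log2 signals from robust multiarray averaging (RMA), which removes background, brings the arrays to a common distribution and summarises each gene's probes. The version of RMA, and whether both dissection sets went through 1 run, are not given in the sources used here, and probe-level data were not used. Of 35556 entries, 21789 carried 1 gene symbol, while 1621 with several and 12146 with none were left out. Where a gene had several entries, that of highest mean over the 12 arrays was used, and 16253 of the 16306 tested genes were matched to RefSeq by Entrez identifier.

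Differences were tested with limma 3.58.1 (lmFit, eBayes) in R 4.3.3 on all 12 arrays with 6 group means and the dissection set as a fixed block. The fit had 5 residual and 5.76 prior degrees of freedom. Its code was also run on simulated data with known changes. Beyond a set effect those arrays varied independently, with each gene's spread held at or under the median spread. The simulation therefore does not show how reliable the calls are. The array labels give a year for each age and region and name no set. The 2 years were taken as the 2 dissections that the paper describes. Arrays of 1 set deviated together from their group means, with a correlation over genes of 0.624 between P0-middle and P8-middle. It ran from 0.544 to 0.916 over all 15 pairs of groups. The middle correlated more with pieces of its own age and set, at 0.855 (base) and 0.818 (apex) for P0. For P8 these values were 0.81 and 0.916. The set was named as the block when the comparison was defined. The block does not take up what is shared only within an age and set. With 2 arrays per group, their number limits the precision. When 1 array is left out, the lone array of its group is assumed to vary like the other groups. The alternatives were other fits of the block, the shared cochleae of an age and set as a further block, other level and fold thresholds, centring, quantile normalization, the mean of all entries of a gene, a trended prior and the unpaired test of the study's methods.

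The comparison, the 40 gene lists and the rules were chosen with earlier results of these data known. Named genes are the 12 largest changes in each direction, up to 4 members that passed and the first 3 members of each list, and the genes past each test between regions. Others are said to have been chosen after their values were seen or serve as markers of a cell type. Lists are described by counts and medians without a test. Promoter and microRNA sequences are those of RefSeq for GRCm38.p6. Python 3.11.15 with pandas 2.3.3, numpy 2.4.6 and, for figures, matplotlib 3.10.9 was used for the rest.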

Additional observations from a re-analysis of the deposited data

Results flagged for a closer look

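A test of the difference between regions set Bpifa1 and Tecta apart. The P8-P0 change of Bpifa1 in the middle minus the mean change of base and apex was −1.96, and minus the change of the apex alone it was −2.13 (log2 scale, limma). The base at both ages, the apex at P0 and the middle at P8 lay under the level of 6 for this gene, so these are contrasts of signals and not measured sizes. The change of Tecta in the middle minus that of the apex was −1.34. No cause was tested.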

How the results depend on the processing

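The counts of 382 risers and 217 fallers rest on the dissection set as a replicate block. Without the block they were 251 and 131, and in a fit of the 4 middle arrays alone without the block, chosen after seeing the data, 23 and 5. The unpaired test of the study's methods gave 224 and 120 at its threshold, of which 223 and 120 were among the 382 and 217, and 0 of either after Benjamini-Hochberg adjustment, with a smallest adjusted p of 0.149. At a fold of 1.5 the counts were 1004 and 800. Leaving out 1 middle array gave 330 to 472 risers and 193 to 292 fallers. The remaining alternatives gave 371 to 408 risers and 192 to 231 fallers. For the middle against the mean of both other regions the count was 0 without the block. Against the apex it was 0 without the block, 4 with the shared cochleae of an age and set as a fixed block, and 0 to 1 with an array left out. Against the base it was 2 with these cochleae as a random block, 4 with them as a fixed block, and 0 to 0 with an array left out.

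Of 115 named genes that passed, 85 also passed without the replicate block, and none changed sign under any alternative. The median of a list changed sign under at least 1 alternative for the matricellular, muscle, aquaporin, oxidative phosphorylation, oxidative defence and Wnt lists and for the sex markers. The causes were not tested. Differences whose lower mean lies under the level of 6 are lower bounds.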
